A study of Homo sapiens with 8 samples.

Results

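ABCC4 and its nearest relatives among the drug exporters, ABCC1, ABCC2, ABCC3, ABCC5 and ABCC10, were followed across MEG-01 cells treated with a phorbol ester, with an ABCC4 inhibitor, or with both. These 6 genes were picked by symbol from 60754 genes in the deposited tables. MEG-01 is an established human megakaryoblast line, so every group derives from the same leukaemic line and none is a primary megakaryocyte. The groups were cells given PMA (phorbol 12-myristate 13-acetate, an activator of protein kinase C that drives megakaryocytic differentiation) at 100 nM together with Ceefourin 2 (an inhibitor of ABCC4) at 20 µM, cells given the same PMA dose alone, cells given Ceefourin 2 alone, and untreated cells, with treatment lasting 48 h. The labels state no dose for Ceefourin 2 on its own. All groups were grown in the same serum-containing medium. Each group had 2 libraries of stranded messenger RNA. The sources do not say whether the 2 libraries came from separate cultures, so the p values measure the spread between these libraries, which may be technical.

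The ABCC exporters are membrane pumps that use ATP to move organic anions out of the cell, often as conjugates with glutathione, glucuronate or sulfate. ABCC4 (MRP4) exports cyclic AMP and cyclic GMP, prostaglandins and nucleotide forms of thiopurine drugs, and in platelets it is found in dense granules and at the cell surface. ABCC5 (MRP5) also carries cyclic nucleotides and nucleotide analogues. ABCC1 (MRP1) exports leukotriene C4 and glutathione conjugates. ABCC2 and ABCC3 are best known as the apical and basolateral exporters of conjugated bile pigments and bile salts in hepatocytes, and ABCC10 (MRP7) carries lipophilic drugs such as taxanes.

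Library totals lay between 44430292 and 89950886 expected counts. The mitochondrial genome supplied 8.32% and 4.94% of the counts of PMA plus Ceefourin 2 replicates 1 and 2, 9.61% and 4.53% in PMA, 2.77% and 3.11% in Ceefourin 2, and 2.55% and 3.94% in untreated cells. The share therefore moved with PMA and was highest in replicate 1 of both PMA groups. Of 14 megakaryocyte markers 13 reached 1 TPM in some library (PF4 did not), and their summed level was 1615 to 1709 TPM with PMA plus Ceefourin 2, 1593 to 1778 with PMA, 718 to 825 with Ceefourin 2 and 666 to 675 in untreated cells. Markers of another blood lineage moved as well, since 9 erythroid markers led by fetal globin HBG2 summed to 26130 to 33180 TPM with PMA plus Ceefourin 2, 31680 to 38160 with PMA, 4656 to 5025 with Ceefourin 2 and 9615 to 10560 in untreated cells. Of 9 monocyte and 9 lymphoid markers 3 and 2 reached 1 TPM, led by LYZ and NCAM1, and none of 6 granulocyte markers did. CD163, MARCO, CD3E and MS4A1 were at 0 everywhere. Monocyte markers summed to 29.58 to 30.45 TPM with PMA and 53.57 to 59.39 in untreated cells. Within that list ITGAM was lower with PMA (1.07 and 0.83 TPM, against 23.25 and 17.52) and FCGR1A higher (6.61 and 6.26, against 0.71 and 0.77). Lymphoid markers summed to 23.05 to 27.56 TPM with PMA and 3.08 to 3.34 in untreated cells. Of 6 stromal and 5 epithelial markers 2 and 3 reached 1 TPM, led by COL1A1 and KRT18. The part of these shifts in the results below was not tested, and in bulk RNA fewer cells of a type and less RNA per cell cannot be told apart.

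ABCC4 was the dominant member. Its level in TPM (a length-corrected share of all transcripts, which allows comparison between genes) was 149 and 134 with PMA plus Ceefourin 2, 129 and 117 with PMA, 112 and 92.5 with Ceefourin 2, and 90.8 and 74.7 in untreated cells. The 4 groups did not overlap on this scale, with PMA plus Ceefourin 2 highest and untreated cells lowest. How many genes separated all 4 groups in this way was not counted. In counts scaled to library size, libraries failed to overlap in 77.9% of all genes for PMA against untreated cells. For Ceefourin 2 the shares were 45.4% with PMA present and 40.7% without. Among 46 protein-coding genes of the ABCA to ABCG families, ABCC4 held rank 1 in all 4 libraries with PMA, ranks 2 and 3 with Ceefourin 2 alone, and rank 3 in both untreated libraries. It supplied 23.9% and 21.8% of all ABC gene TPM with PMA plus Ceefourin 2, 19.3% and 17.8% with PMA, 15.5% and 14.0% with Ceefourin 2, and 12.8% and 12.3% in untreated cells. The gene lies on the minus strand at chr13:95019829-95301475 (GRCh38), where GENCODE lists 17 transcripts, 6 of them protein-coding.

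ABCC1, the leukotriene C4 and glutathione conjugate exporter (chr16:15949577-16143074, plus strand), was next. It had 32.2 and 25.4 TPM with PMA plus Ceefourin 2, 35.8 and 27.0 with PMA, 35.6 and 29.9 with Ceefourin 2, and 38.0 and 23.4 in untreated cells. All 4 groups overlapped, and the untreated libraries alone spanned every other value. ABCC5 (chr3:183919934-184018015, minus strand) had 12.1 and 11.2 TPM with PMA plus Ceefourin 2, 15.5 and 14.3 with PMA, 25.3 and 19.9 with Ceefourin 2, and 31.7 and 23.8 in untreated cells. Every library with PMA was below every library without it, a split that was not counted over all genes. ABCC10 (chr6:43427366-43450430, plus strand) showed the opposite order, with 11.5 and 11.2 TPM with PMA plus Ceefourin 2, 13.1 and 12.1 with PMA, 7.60 and 7.59 with Ceefourin 2, and 9.29 and 7.44 in untreated cells. ABCC1 and ABCC5 overlapped in untreated cells, and ABCC5 and ABCC10 overlapped with PMA plus Ceefourin 2, so the order of those neighbours was not resolved there.

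The hepatic exporters were close to the limit of detection. ABCC2 (chr10:99782640-99852594, plus strand) had 14 to 31 counts per library, or 0.08 to 0.23 TPM. ABCC3 (chr17:50634777-50692252, plus strand) had 12 and 38 counts with PMA plus Ceefourin 2, 35 and 41 with PMA, 2 and 11 with Ceefourin 2, and 5 and 5 in untreated cells. Its libraries with PMA lay above both untreated libraries, at levels of at most 0.56 TPM. Among the other ABCC genes ABCC6 and ABCC12 had no count in any library, and ABCC8 and ABCC11 had at most 3 counts in any library. The antisense gene ABCC5-AS1 also had 0 counts in every library. All 48 expected counts of the 6 genes were whole numbers (within 1e-06), so no reads had been divided between them and other genes.

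**Figure D1:**
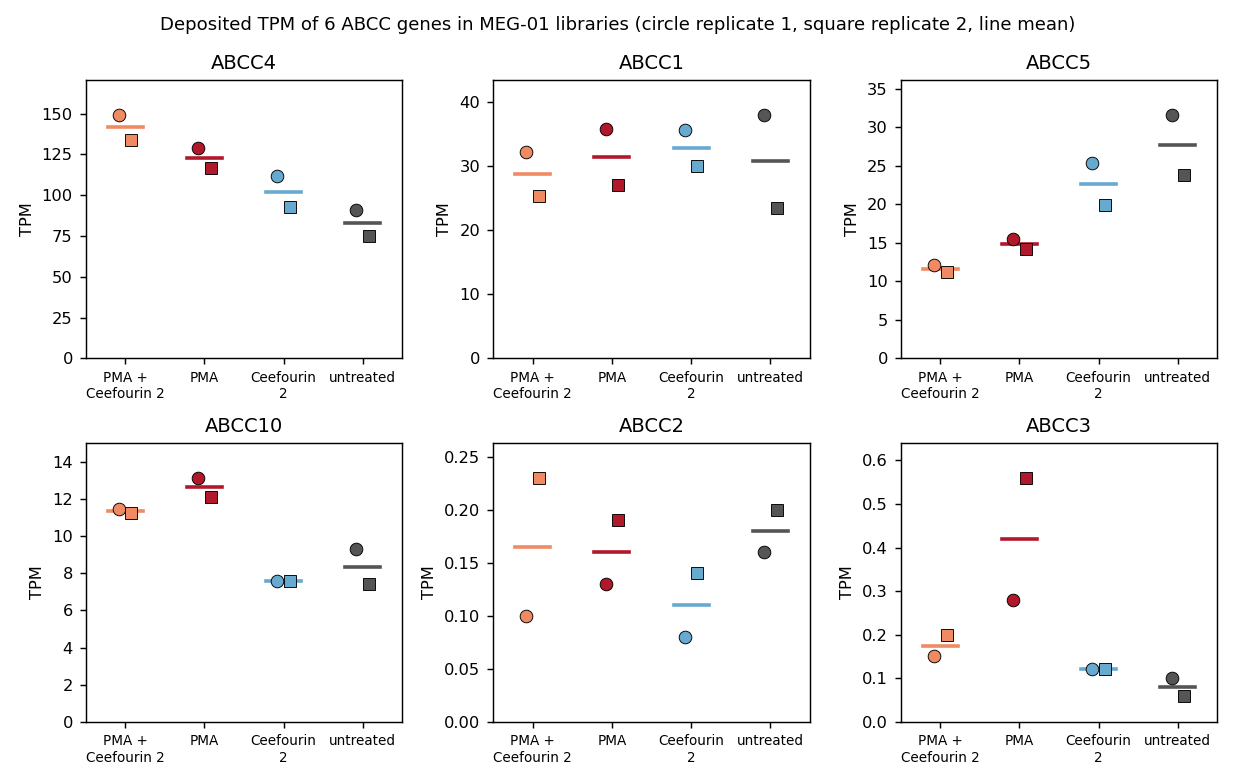
Deposited TPM of the 6 ABCC genes in each MEG-01 library, with groups along the horizontal axis and TPM from 0 on a separate vertical scale for each gene; circles are replicate 1, squares replicate 2 and lines the mean of both. ABCC4 and ABCC10 were higher and ABCC5 lower in all libraries with PMA than in all untreated libraries, and ABCC1 overlapped between all groups. In counts scaled to library size, PMA and untreated libraries failed to overlap in 77.9% of all genes.

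The stretches just upstream of the genes are shown for ABCC4, ABCC5 and ABCC10, whose levels separated the libraries with PMA from those of untreated cells, because factors that answer to oxidants and dioxins are known to act on ABCC genes. The RefSeq promoter windows of GRCh38.p14 (250 bases before to 50 after a start) held entries for ABCC2, ABCC4, ABCC5 and ABCC10. Below, bases before the first annotated exon are printed 5′ to 3′ along the gene's own strand for ABCC4 (chr13:95301476-95301701, minus strand) and ABCC5 (chr3:184018016-184018134, minus strand), with a 29-base context for ABCC10 (chr6:43427388-43427416, plus strand). Capitals mark matches, on either strand, to the antioxidant response element TGACNNNGC or the dioxin response element core GCGTG.
ABCC4: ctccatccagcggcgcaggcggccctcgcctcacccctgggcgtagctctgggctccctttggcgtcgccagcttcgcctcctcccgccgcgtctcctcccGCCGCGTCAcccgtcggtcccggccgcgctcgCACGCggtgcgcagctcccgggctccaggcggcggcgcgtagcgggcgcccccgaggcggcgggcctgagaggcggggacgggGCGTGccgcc
ABCC5: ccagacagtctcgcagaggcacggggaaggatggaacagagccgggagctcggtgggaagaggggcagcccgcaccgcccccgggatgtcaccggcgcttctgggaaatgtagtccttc
ABCC10: aggttataaaTGACGTTGCactaagggag
ABCC4 had 1 antioxidant response element match, on the opposite strand 149 bases before the start, and 2 GCGTG cores upstream, at 117 and 34 bases before the start. ABCC10 had 1 antioxidant response element match 143 bases before the RefSeq start of its second window, inside the gene as GENCODE draws it. No match to that element lay in the windows of ABCC2 or ABCC5, and 13.3% of 35116 promoter windows held one. GCGTG lay in 36.5% of windows, here those of ABCC4, ABCC5 (after the start, so not printed) and ABCC10 (outside the stretch printed). Of the other motifs searched on both strands, the AP-1 element TGANTCA was held by 7.7% of windows, the GATA-factor motif AGATAA by 10.3% and the cyclic AMP response element TGACGTCA by 1.8%, and none matched in the windows of these 4 genes. The motifs may overlap one another, and a match describes the letters only.

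The make-up of the exporter set shifted with treatment. ABCC4 supplied 72.7% and 73.5% of the summed TPM of the 6 genes with PMA plus Ceefourin 2, 66.6% and 68.3% with PMA, 61.9% and 61.6% with Ceefourin 2, and 53.4% and 57.7% in untreated cells. ABCC5 supplied 5.89% and 6.15% with PMA plus Ceefourin 2, 7.97% and 8.35% with PMA, 14.1% and 13.2% with Ceefourin 2, and 18.6% and 18.3% in untreated cells. The balance of the 2 cyclic nucleotide exporters differed between groups. The TPM ratio of ABCC4 to ABCC5 was 12.3 and 11.9 with PMA plus Ceefourin 2, 8.36 and 8.19 with PMA, 4.40 and 4.65 with Ceefourin 2, and 2.87 and 3.15 in untreated cells. These ratios did not overlap between any of the 4 groups, and such separation was not counted for other pairs of genes. A ratio within a library shows unequal change and not which of the genes moved.

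**Figure D2:**
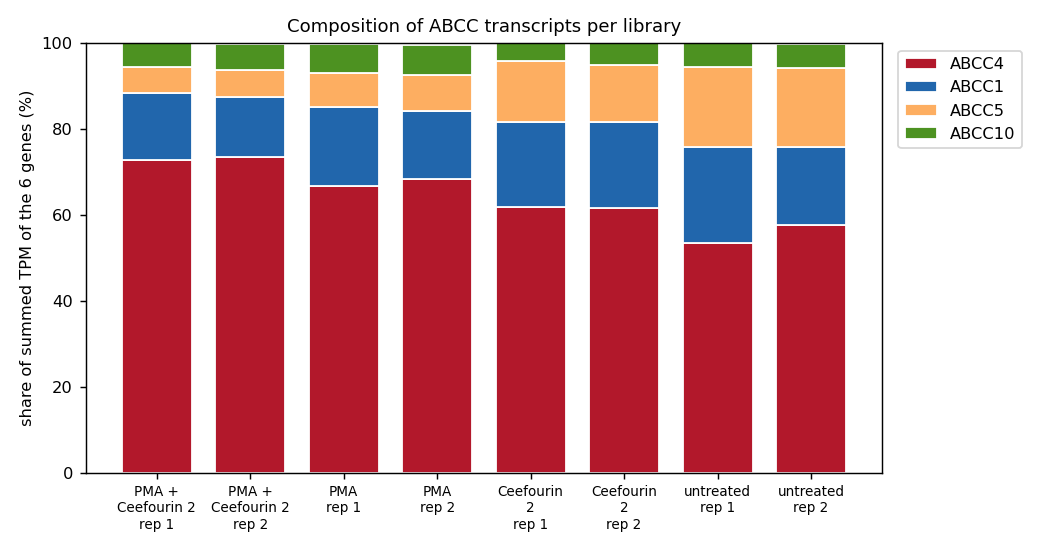
Share of the summed TPM of the 6 ABCC genes taken by ABCC4, ABCC1, ABCC5 and ABCC10 in each of the 8 libraries, as stacked bars from 0 to 100%; ABCC2 and ABCC3 are counted in the sum but too small to be seen. The ABCC4 share was 66.6% to 73.5% in libraries with PMA and 53.4% to 61.9% in libraries without, and the ABCC5 share was 5.89% to 8.35% with PMA and 13.2% to 18.6% without.

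PMA raised ABCC4 and ABCC10 in MEG-01 cells. In CPM (counts scaled to library size with TMM factors and not corrected for length), ABCC4 was at 594 and 545 CPM with PMA, against 344 and 305 CPM in untreated cells. This was a 1.75-fold difference (95% interval 1.50 to 2.05, log2 0.81 ± 0.10 SE, edgeR quasi-likelihood test, adjusted p = 0.000295). ABCC10 was at 41.5 and 40.0 CPM with PMA, against 21.8 and 20.0 CPM in untreated cells. It rose 1.95-fold (1.67 to 2.27, log2 0.96 ± 0.09, edgeR adjusted p = 0.000101). ABCC3 was at 0.593 and 0.886 CPM with PMA and at 0.104 and 0.0817 CPM in untreated cells, which edgeR also called higher (log2 2.97 ± 0.68, adjusted p = 0.00692). It reached the cutoff for testing in 5 of 8 libraries, 4 of them with PMA, where 2 libraries were needed. It was thus tested only because of the libraries in which it was high, and its call supports nothing about the set.

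In all, 3 of the 6 exporters were called higher after PMA and 0 lower. The 3 include ABCC3, whose testing depended on its libraries with PMA. At background, 53.6% of the 17314 genes tested were called, 27.9% higher and 25.7% lower. Of the 3 other exporters none was called by the main edgeR fit or by DESeq2, and in these none had an unadjusted p below 0.05. ABCC1 was at 177 and 134 CPM with PMA and at 158 and 108 CPM in untreated cells (log2 0.23, 95% interval -0.27 to 0.72, edgeR adjusted p = 0.4). ABCC2 did not differ beyond its spread (log2 -0.12, interval -0.998 to 0.764, edgeR adjusted p = 0.816). ABCC5 was at 59.6 and 52.4 CPM with PMA and at 79.2 and 61.3 CPM in untreated cells. Its libraries did not overlap, but the difference did not pass (log2 -0.33, interval -0.71 to 0.06, edgeR adjusted p = 0.131). Libraries failed to overlap in 77.9% of all genes in this comparison.

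The same contrast in the presence of Ceefourin 2 used 4 other libraries. ABCC4 was at 697 and 632 CPM with PMA plus Ceefourin 2, against 387 and 363 CPM with Ceefourin 2 alone (1.77-fold, 1.51 to 2.07, edgeR adjusted p = 0.000269). ABCC10 was at 36.6 and 36.1 CPM with PMA plus Ceefourin 2, against 21.996 and 23.5 CPM with Ceefourin 2 (1.60-fold, 1.37 to 1.86, edgeR adjusted p = 0.000582). These 2 were the exporters called, at a background of 53.5% of genes, 28% higher and 25.6% lower. ABCC3 stopped short of the threshold (log2 1.78, 0.24 to 3.33, edgeR adjusted p = 0.0535). So did ABCC5 (log2 -0.40, -0.79 to -0.02, edgeR adjusted p = 0.0717). Without Ceefourin 2 replicate 2 the log2 differences were 3.45 for ABCC3 and -0.59 for ABCC5. That fit left 1 library with Ceefourin 2 alone, which held 2 ABCC3 counts. ABCC3 was tested here only because of its libraries with PMA, so its difference supports nothing about the set. The ABCC5 libraries did not overlap here either, at 48.1 and 43.7 CPM with PMA plus Ceefourin 2 and 68.9 and 52.5 CPM with Ceefourin 2, as was so for 76.2% of all genes. ABCC1 had a log2 difference of 0.09 (-0.40 to 0.58) and ABCC2 one of 0.41 (-0.48 to 1.302). Without replicate 1 of both PMA groups, the libraries with the highest mitochondrial shares, ABCC4 had a log2 difference of 0.75 after PMA (edgeR adjusted p = 0.00711) and ABCC10 one of 0.94. Each PMA group then held 1 library, assumed to vary like the other groups, and the part of the mitochondrial share in these results was not tested.

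**Figure D3:**
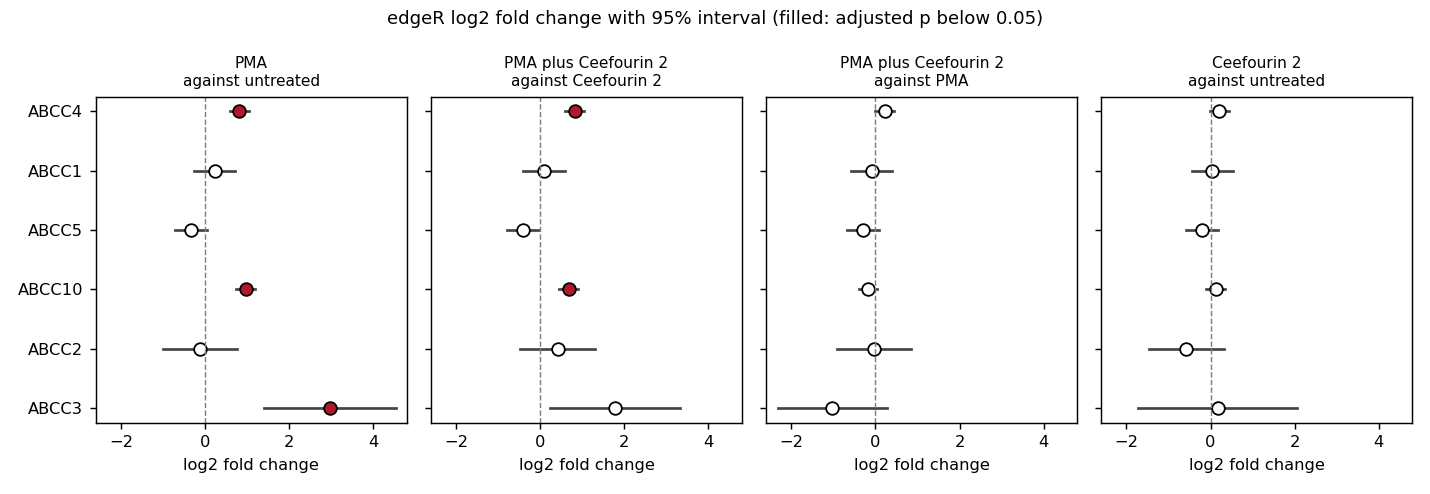
Log2 fold changes of the 6 ABCC genes on the horizontal axis with 95% intervals from the edgeR fit, in 4 comparisons, the 2 left panels for PMA (without, then with Ceefourin 2) and the 2 right panels for Ceefourin 2 (with, then without PMA); filled points had an adjusted p below 0.05. ABCC4 and ABCC10 were called in both comparisons for PMA and no exporter was called in either comparison for Ceefourin 2.

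For ABCC5 the size of the difference and the call depended on the unit. On log2(TPM + 1), limma called it lower after PMA in both settings, at -0.84 against untreated cells (adjusted p = 0.00321) and -0.89 for PMA plus Ceefourin 2 against Ceefourin 2 (adjusted p = 0.00234). The median of all genes on that scale lay at -0.24 and -0.27 in those comparisons, and relative to it ABCC5 stood at -0.61 and -0.63. On that scale ABCC4 rose by 0.57 (limma adjusted p = 0.00706) and 0.47 (limma adjusted p = 0.0156). Of the calls made by limma on TPM, 33.2% were higher after PMA, against 52.1% of the calls made by edgeR on counts, and with Ceefourin 2 present the shares were 30.9% and 52.2%. The mean effective length of the ABCC5 transcripts, recovered from the ratio of expected counts to TPM, was 4340 and 4098 bases with PMA plus Ceefourin 2, 4205 and 4011 with PMA, 3686 and 3384 with Ceefourin 2, and 3383 and 3213 in untreated cells. RSEM thus assigned ABCC5 reads to longer transcripts in every library with PMA than in any without. GENCODE lists 13 ABCC5 transcripts, with the 7 coding ones between 591 and 5921 bases long.

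The ABCC5 shift was unusual in size. Its log2 length ratio was 0.32 for PMA against untreated cells, and 86 of 7837 genes (1.10%) shifted as far in either direction, while the median shift was 0.03. For PMA plus Ceefourin 2 against Ceefourin 2 the ratio was 0.26, which 1.77% of genes matched. Lengths with and without PMA failed to overlap in 972 of the 7837 genes (12.4%). ABCC10 differed in length with another treatment. Its transcripts averaged 3921 and 3973 bases with Ceefourin 2 alone, against 3172 and 3355 bases in untreated cells (log2 ratio 0.27, matched by 0.498% of genes), and lay between 3374 and 3600 bases in the 4 libraries with PMA. Its mean TPM was lower and its CPM slightly higher with Ceefourin 2 than in untreated cells (log2 ratio of mean TPM -0.14, log2 fold change in CPM 0.12). The TPM of these groups overlapped. Neither difference was called (limma on log2(TPM + 1) adjusted p = 0.818, edgeR adjusted p = 0.668). ABCC4 lengths stayed between 4706 and 5119 bases and ABCC1 lengths between 5333 and 5738 bases. These lengths are descriptions, and the split of reads between transcripts was not part of the files used here.

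**Figure D4:**
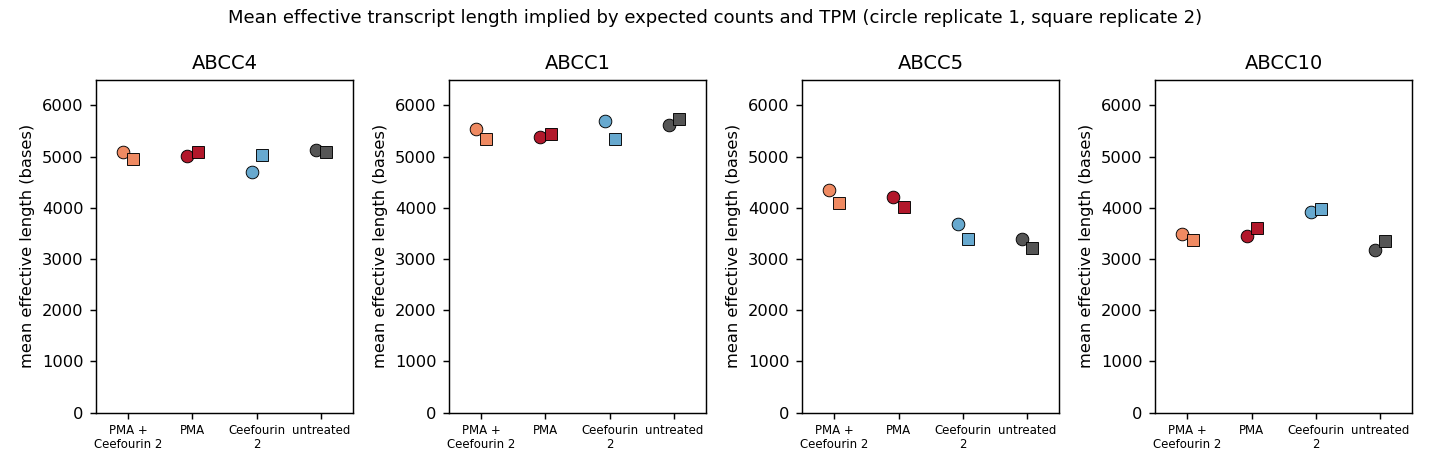
Mean effective transcript length in bases, recovered per library from expected counts and TPM, for ABCC4, ABCC1, ABCC5 and ABCC10 in the 4 groups; circles are replicate 1 and squares replicate 2. ABCC5 lay at 4011 to 4340 bases in libraries with PMA and 3213 to 3686 bases in libraries without, and ABCC10 lay highest with Ceefourin 2 alone.

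Ceefourin 2 blocks the ABCC4 protein, and the design allows the question whether the RNA of the exporters differs when it is present. With Ceefourin 2, none of the 6 exporters was called by the main edgeR fit in PMA plus Ceefourin 2 against PMA. The background there was 1.83% of genes (0.918% higher, 0.913% lower). None was called by that fit in Ceefourin 2 against untreated cells, at a background of 1.68% (0.959% higher, 0.722% lower). These backgrounds depended on single libraries, since 21 genes were called without PMA plus Ceefourin 2 replicate 1 (317 with all libraries) and 30 without untreated replicate 1 (291 with all libraries). With the main edgeR fit 0 exporters had an unadjusted p below 0.05. DESeq2 and limma on filtered TPM called 0 of ABCC1, ABCC4, ABCC5 and ABCC10, and gave no adjusted p for ABCC2 and ABCC3 here. ABCC4 came closest. It was at 697 and 632 CPM with PMA plus Ceefourin 2, against 594 and 545 CPM with PMA (1.17-fold, 95% interval 1.00 to 1.37, edgeR adjusted p = 0.371). It was at 387 and 363 CPM with Ceefourin 2, against 344 and 305 CPM in untreated cells (1.16-fold, 0.99 to 1.35, edgeR adjusted p = 0.415). Both libraries were higher with the inhibitor in both settings, and 45.4% and 40.7% of all genes likewise did not overlap.

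ABCC5 was at 48.1 and 43.7 CPM with PMA plus Ceefourin 2, below 59.6 and 52.4 CPM with PMA (log2 -0.29, interval -0.67 to 0.10, edgeR adjusted p = 0.52), and overlapped between Ceefourin 2 and untreated cells (log2 -0.21, -0.59 to 0.17). ABCC10 had log2 differences of -0.17 with PMA present (-0.38 to 0.05) and 0.12 without (-0.10 to 0.34). ABCC3 was at 0.244 and 0.459 CPM with PMA plus Ceefourin 2, below its values with PMA (log2 -1.02, -2.31 to 0.27, edgeR adjusted p = 0.491). The interval for ABCC1 was -0.58 to 0.40 with PMA and -0.45 to 0.54 without. For ABCC2 it was -0.92 to 0.84 with PMA and -1.47 to 0.32 without. For ABCC3 without PMA it was -1.72 to 2.06, an interval that includes a 2-fold change in either direction. The ABCC2 interval without PMA and the ABCC3 interval with PMA each include a 2-fold fall. The interaction of PMA and Ceefourin 2 was called for 0 of 6 exporters by the main edgeR fit (0 at an unadjusted p below 0.05), at a background of 0.0116%. DESeq2 and limma called 0 of the 4 for which they gave an adjusted p, which left out ABCC2 and ABCC3. For ABCC4 it was 0.01 on the log2 scale, with a 95% interval from -0.31 to 0.33.

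Averaging over the other treatment uses all 8 libraries at once and was done after the data were seen. The average log2 difference with Ceefourin 2 was 0.22 for ABCC4 (95% interval 0.06 to 0.38, edgeR adjusted p = 0.137) and -0.25 for ABCC5 (-0.52 to 0.02, edgeR adjusted p = 0.304), where 4.75% of all genes were called. The average with PMA was 0.82 for both ABCC4 (edgeR adjusted p = 2.22e-05) and ABCC10 (edgeR adjusted p = 1.74e-05). For ABCC5 it was -0.37 (-0.64 to -0.09, edgeR adjusted p = 0.0241), which is a pooled value. Among the single comparisons, edgeR without a filter on low counts also called ABCC5 lower in both (adjusted p = 0.0346 against untreated cells and 0.00402 with Ceefourin 2 present). For the average with PMA 65.9% of all genes were called.

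Genes with the most similar course across the 8 libraries were found by the root mean square difference of centred log2 CPM among 9016 protein-coding genes. Closest to ABCC4 was USP9X, an X-linked deubiquitinase, with a difference of 0.05. It was at 236 and 208 CPM with PMA plus Ceefourin 2, 203 and 190 with PMA, 128 and 117 with Ceefourin 2, and 124 and 104 in untreated cells, which is the group order of ABCC4 itself. ILRUN, REEP3, BRD3OS and SECISBP2L followed at 0.05 to 0.06, and 255 genes lay within 0.15, so a course like that of ABCC4 was common. The closest genes were MLEC, TRMT2A and PREB for ABCC5, ZFYVE27, PGGHG and BIN3 for ABCC10, and, among the closest, AGO3 and MED23 for ABCC1, at differences of 0.05 to 0.07. For the sparse genes the nearest were farther off, with ETFB, ZNF33A and CD4 at 0.13 from ABCC2, and GAD1, APOBR and NDRG2 at 0.42 to 0.45 from ABCC3.

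Partner proteins of ABCC4 were read beside it. Of 5 tested PDZ adaptors and scaffold partners, 2 rose and 1 fell after PMA, a share called near the 53.6% of all genes, with a list median of 0.22 against 0.00 for all genes. MPP1, a membrane scaffold reported to bind ABCC4, was at 451 ± 45.0 CPM with PMA and 110 ± 13.0 CPM in untreated cells (SD, n = 2 each; log2 2.04, edgeR adjusted p = 3.45e-05). SLC9A3R2, the adaptor NHERF2, fell by 1.14 on the log2 scale (edgeR adjusted p = 0.000396). PDZK1 was called higher from 21 and 21 counts with PMA against 4 and 1 in untreated cells (edgeR adjusted p = 0.0451), a call lost without any 1 library of PMA, PMA plus Ceefourin 2 or untreated cells (adjusted p of 0.0682 to 0.209). PDZK1 would not have been tested without its libraries with PMA, so its call supports nothing about the list. With Ceefourin 2, MPP1 had log2 differences of -0.44 against PMA (edgeR adjusted p = 0.265) and -0.45 against untreated cells (edgeR adjusted p = 0.247). No adaptor was called for Ceefourin 2 in either setting by the main edgeR fit, by DESeq2 where it gave an adjusted p, or by limma among the 4 it tested. In the main edgeR fit 1 and 2 of 5 had an unadjusted p below 0.05. MPP1 was called lower with Ceefourin 2 under 2 of 20 alternative fits in each setting.

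Of 13 tested transcription factors known to act on ABCC genes, 6 rose and 5 fell after PMA (median 0.22), beside 27.9% of all genes higher and 25.7% lower. MAFF and MAFG, small MAF partners of the antioxidant response factor NFE2L2, rose by 2.18 and 0.92 on the log2 scale (edgeR adjusted p = 0.000245 and 0.000276). MAFF was at 20.8 ± 0.364 CPM with PMA and 4.58 ± 1.15 CPM in untreated cells (SD, n = 2 each). MYC fell to 514 ± 10.1 CPM with PMA, against 1098 ± 92.8 CPM in untreated cells (log2 -1.09, edgeR adjusted p = 3.66e-05). MYCN had 137 and 123 counts with PMA and 1 and 1 in untreated cells, a ratio of 119 per total count (95% counting interval 32.5 to 986). It is counted among the 6 that rose, but it reached the cutoff for testing only in libraries with PMA. Ceefourin 2 lowered MYCN in PMA cells (log2 -1.26, edgeR adjusted p = 0.0443). Against untreated cells it raised AHR, the dioxin receptor (log2 1.10, edgeR adjusted p = 0.0488) and lowered PPARA (log2 -0.87, edgeR adjusted p = 0.0178). None of these 3 calls rested on all fits. That of MYCN was lost without any 1 of the 8 libraries (edgeR adjusted p of 0.0507 to 0.282) and with DESeq2 (adjusted p = 0.0582). That of AHR was lost without either library of PMA, Ceefourin 2 or untreated cells (edgeR adjusted p up to 0.264), and that of PPARA without Ceefourin 2 replicate 2 or either untreated library (edgeR adjusted p up to 0.13).

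Genes that make the substrates of these pumps were read next. Of 12 tested genes of prostanoid and leukotriene synthesis and uptake, 6 rose and 3 fell after PMA, with a median of 0.72, beside 27.9% of all genes higher and 25.7% lower. PTGS1, the cyclooxygenase of platelets, was at 653 ± 10.4 CPM with PMA and 41.9 ± 2.34 CPM in untreated cells (SD, n = 2 each; log2 3.96, edgeR adjusted p = 5.99e-07). TBXAS1, thromboxane synthase, rose by 2.76 on the log2 scale, LTC4S, which makes the ABCC1 substrate leukotriene C4, by 3.34, and HPGD, which breaks prostaglandins down, by 1.47 (edgeR adjusted p at most 2.39e-05). Ceefourin 2 raised PTGS1 further in PMA cells, to 917 ± 37.2 CPM (SD, n = 2; log2 0.49, edgeR adjusted p = 0.0317). HPGDS, a prostaglandin D synthase, fell with Ceefourin 2 in both settings, to a log2 difference of -1.75 with PMA (edgeR adjusted p = 0.0207) and -1.28 without (edgeR adjusted p = 0.0418). The PTGS1 call was lost without any 1 library of PMA, PMA plus Ceefourin 2 or untreated cells (edgeR adjusted p up to 0.231). That of HPGDS with PMA was lost without either PMA library or PMA plus Ceefourin 2 replicate 1 (edgeR adjusted p up to 0.144), and without PMA it was lost without any 1 library of PMA, Ceefourin 2 or untreated cells (edgeR adjusted p up to 0.198).

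Of 24 tested genes of glutathione synthesis and conjugation, 6 rose and 5 fell after PMA (median 0.24), so fewer than the 53.6% of all genes were called. Besides LTC4S, the most strongly called were falls: GCLC, the catalytic subunit of the first step of glutathione synthesis, fell by 1.21, the microsomal transferase MGST1 fell by 1.82, and glutathione reductase GSR fell by 0.70 on the log2 scale (edgeR adjusted p at most 0.00033). GCLC was at 37.2 ± 1.17 CPM with PMA and 86.3 ± 0.440 CPM in untreated cells (SD, n = 2 each). MGST2, a relative of LTC4S, was the only member called with Ceefourin 2, in both settings. It was at 14.2 ± 0.226 CPM with PMA plus Ceefourin 2 and 30.6 ± 3.57 CPM with PMA (log2 -1.11, edgeR adjusted p = 0.00784). It was at 11.5 ± 0.0621 CPM with Ceefourin 2 and 24.6 ± 2.83 CPM in untreated cells (log2 -1.09, edgeR adjusted p = 0.011; SD, n = 2 each throughout). The call against PMA was lost without PMA replicate 2 or either library of PMA plus Ceefourin 2 (edgeR adjusted p up to 0.0861), and the other without untreated replicate 2 (edgeR adjusted p = 0.0774).

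Of 22 tested genes of cyclic nucleotide synthesis and hydrolysis, 8 rose and 4 fell after PMA (median 0.46), a share called near the 53.6% of all genes. PDE5A, which degrades cyclic GMP, was at 64.9 ± 1.14 CPM with PMA and 1.46 ± 0.196 CPM in untreated cells (SD, n = 2 each; log2 5.48, edgeR adjusted p = 1.46e-06). PDE2A rose by 5.70 and the adenylate cyclase ADCY6 by 2.58, while PDE3B fell by 1.86 on the log2 scale (edgeR adjusted p at most 1.95e-05). PDE5A was the only member of this list that edgeR called for Ceefourin 2 in PMA cells. It was at 25.9 ± 3.40 CPM with PMA plus Ceefourin 2 (SD, n = 2; log2 -1.32 against PMA, edgeR adjusted p = 0.00629). GUCY1B1 is a subunit of the nitric oxide receptor that makes cyclic GMP. It was the only one that the main edgeR fit called for Ceefourin 2 against untreated cells (log2 1.23, edgeR adjusted p = 0.026). DESeq2 called 1 higher and 3 lower for Ceefourin 2 in PMA cells, and 3 higher and 0 lower against untreated cells. The PDE5A call was lost without PMA replicate 2 or PMA plus Ceefourin 2 replicate 1 (edgeR adjusted p of 0.063 and 0.0721), and that of GUCY1B1 without Ceefourin 2 replicate 1 or either untreated library (edgeR adjusted p up to 0.175).

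Of 15 tested genes of thiopurine and folate handling, 9 fell and 1 rose after PMA, with a median of -0.73, against a background of 25.7% lower and 27.9% higher. SLC29A1, an equilibrative nucleoside transporter, was at 68.1 ± 5.51 CPM with PMA and 199 ± 14.5 CPM in untreated cells (SD, n = 2 each; log2 -1.55, edgeR adjusted p = 1.22e-05). The reduced folate carrier SLC19A1 fell by 1.40, and GMPS, which makes guanine nucleotides and activates thiopurines, fell by 0.94 on the log2 scale (edgeR adjusted p at most 8.16e-05). With Ceefourin 2 present, 10 fell and 1 rose. No gene of this list was called for Ceefourin 2 by the main edgeR fit, DESeq2 or limma in either setting, with 1 and 0 at an unadjusted p below 0.05 in edgeR. NT5C2 of this list was called higher with Ceefourin 2 in PMA cells under 1 of 20 alternative fits. The 1 rise after PMA was not called on upper-quartile scaling or on TPM, where 9 and 10 genes fell.

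Across the other lists, medians were lower on TPM than on counts, as was the median of all genes. For 2 lists the genes tested differ too, with 17 cyclic nucleotide and 20 glutathione genes on TPM, against 22 and 24 in edgeR. On TPM the medians after PMA were 0.09 for prostanoid genes, -0.10 for glutathione genes, -0.20 for cyclic nucleotide genes and -0.06 for the transcription factors, against the all-gene median of -0.24 given above. None of the lists had a member called for the interaction by edgeR, with 3 transcription factors, 2 glutathione genes, 1 prostanoid gene and 5 cyclic nucleotide genes at an unadjusted p below 0.05, and DESeq2 called 1 transcription factor and 3 cyclic nucleotide genes. Of the ABCC genes outside the 6 exporters, ABCC9, the sulfonylurea receptor subunit of potassium channels and no exporter, was the only one tested. It had 16 and 11 counts with PMA against 1 and 2 in untreated cells, a ratio of 8.22 per total count (95% counting interval 2.53 to 42.3), and it was tested only because of its libraries with PMA.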

How the data were processed

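Stranded messenger RNA libraries of 8 MEG-01 samples, 2 in each of 4 groups, were sequenced from both ends, per the labels' protocols. Per the submitters' processing notes, STAR 2.7, RSEM 1.3.1 and hg38 were used, and the annotation release is not stated there. The authors deposited RSEM expected counts per gene, which are not normalized, and RSEM TPM values, which correct for transcript length and give every library the same total. TPM is a share, so a rise in a few very abundant transcripts lowers all others on that scale.

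After rounding, the expected counts went into edgeR 4.0.16 under R 4.3.3 (filterByExpr, which kept 17314 genes, TMM factors of 0.92 to 1.08, 1 quasi-likelihood model for the 8 libraries with the 4 group means as coefficients, 4 residual degrees of freedom). The Benjamini-Hochberg adjustment ran over the 17314 genes of each comparison, and a gene was called below 0.05. "Rose" and "fell" refer to called genes. The 2 comparisons for PMA share no library with each other, and neither do those for Ceefourin 2. SDs come from 2 libraries and are imprecise. Replicates differed by more than counting noise in every group (chi-square per degree of freedom 45.0 to 94.6). Counting intervals cover counting error only.

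DESeq2 1.42.0 and limma 3.58.1 on log2(TPM + 1), for genes with a TPM of at least 1 in 2 libraries, served as alternatives, with other scalings, filters and left-out libraries. Where 1 library of a group was left out, the other was assumed to vary like the other groups. The script was tested on simulated counts. Effective length per library was the ratio of expected count to TPM, calibrated on 251 genes with a single transcript, and was examined after these data were seen. Positions and transcripts came from GENCODE v29, and promoter windows from RefSeq. The 6 exporters and the gene lists, 187 symbols of which 186 were matched, were chosen with earlier results of these data known. Listed genes were named by rule, taking per list and comparison at most 4 called genes in order of p, and the lowest p alone in lists with no call. A few genes that this rule or the search for similar courses selects are not reported here.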

Additional observations from a re-analysis of the deposited data

Results flagged for a closer look

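ABCC10 had opposite signs with Ceefourin 2 in the presence and absence of PMA. It was at 36.6 and 36.1 CPM with PMA plus Ceefourin 2, below 41.5 and 40.0 CPM with PMA (log2 -0.17), and at 21.996 and 23.5 CPM with Ceefourin 2, above 21.8 and 20.0 CPM in untreated cells (log2 0.12). The difference between the effects was tested as the interaction and was not called (log2 -0.29, 95% interval -0.59 to 0.02, edgeR adjusted p = 0.747). On log2(TPM + 1) both effects were negative, and limma called neither.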

How the results depend on the processing

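ABCC4 rose after PMA under all 20 alternatives (log2 0.57 to 0.91) and ABCC10 under all 20 (0.55 to 1.03). With Ceefourin 2 present ABCC4 rose under 19 of 20, and on unfiltered log2(TPM + 1) with limma it was 0.47 with adjusted p = 0.0501. ABCC5 was called lower under 5 of 20 alternatives after PMA and under 7 of 20 with Ceefourin 2 present. In the main fit ABCC3 was tested only because of its libraries with PMA, so its calls support nothing about the set. Leaving out 1 library gave 3 exporters called after PMA each time, ABCC3 among them. With Ceefourin 2 present it gave 2 to 4, and 4 were called there without a filter on low counts.

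Replicate numbers 1 and 2 are shared between groups, but the labels name no shared batch, and deviations of same-numbered libraries correlated at 0.14 to 0.36. With the replicate block, 5 exporters were called after PMA, 4 with Ceefourin 2 present, and 1 each (ABCC4) for Ceefourin 2 with PMA (log2 0.22, edgeR adjusted p = 0.0306) and without (0.21, edgeR adjusted p = 0.0384).

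The ABCC4 interaction changed sign to -0.00672 with RLE scaling, to -0.00679 with DESeq2, to -0.00284 without a filter, and to -0.10 in all 3 limma fits, none called. The limma fits on TPM turned ABCC10 for Ceefourin 2 against untreated cells to -0.12 and, with a pseudocount of 0.1, to -0.13, and ABCC1 for PMA plus Ceefourin 2 against Ceefourin 2 to -0.18 and -0.19. ABCC1 was at -0.0841 there without replicate 1 of both PMA groups, a fit added after the data were seen. ABCC2 for PMA plus Ceefourin 2 against PMA was 0.00444 in the unfiltered limma fit.

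Leaving out 1 library at a time turned the sign only of differences that had not been called. For PMA against untreated cells the range was -0.00938 to 0.54 for ABCC1 and -0.35 to 0.21 for ABCC2. For PMA plus Ceefourin 2 against PMA it was -0.27 to 0.12 for ABCC1, -0.15 to 0.0587 for ABCC2 and -0.80 to 0.15 for ABCC9. For Ceefourin 2 against untreated cells it was -0.18 to 0.37 for ABCC1, -1.50 to 0.95 for ABCC3, -0.41 to 0.00664 for ABCC5 and -0.73 to 0.23 for ABCC9. For PMA plus Ceefourin 2 against Ceefourin 2 it was -0.0865 to 0.26 for ABCC1. For the interaction it was -0.10 to 0.0805 for ABCC4, -0.47 to 0.0848 for ABCC1, -1.98 to 0.48 for ABCC3 and -0.30 to 0.11 for ABCC5. The cause was not tested.

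Counts of genes called over the whole table varied more for Ceefourin 2 than for PMA. Against PMA, 317 became 21 to 324 without 1 library, 799 with DESeq2, 1482 with the replicate block, 1211 without a filter, 154 and 118 with limma at a pseudocount of 0.1 and unfiltered, and 1 without replicate 1 of both PMA groups. Against untreated cells, 291 became 30 to 188, 838, 1430, 1174 and, unfiltered in limma, 89, and it was 31 with the 2 groups alone and 41 without replicate 1 of both PMA groups. The interaction gave 2 genes, 207 with DESeq2, 247 with the replicate block, 414 without a filter and 8 to 21 with limma. DESeq2 gave no adjusted p for ABCC2 or ABCC3 in either Ceefourin 2 comparison or the interaction. With ABCC2 at 14 to 31 and ABCC3 at 2 to 41 counts per library, counting limits both genes.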
